A study of Mus musculus with 24 samples.

Results

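Sham-operated mouse hearts were compared with hearts of sedentary mice, for which the labels name no operation. The samples were 12 of the 24 libraries of the study: Sedentary 1 to 4, Sham-LVH 1 to 4 and Sham-HF 1 to 4, that is 8 sham libraries against 4 sedentary ones. A gene was taken as shared by both sham groups where Sham-LVH and Sham-HF each differed from the same 4 sedentary hearts in the same direction at an adjusted p under 0.05, and 172 of 13879 genes tested met this rule, 100 of them higher and 72 lower in the shams. All mice were of the strain C57BL/6, no genetic change is named for any group, and the tissue is labelled as heart in every library. Sham-LVH hearts are the controls of hearts with TAC (transverse aortic constriction, which narrows the aorta by surgery) taken after 2 weeks and marked LVH, and Sham-HF hearts those of TAC hearts taken after 8 weeks and marked HF. The remaining group, running, held 4 hearts of mice that exercised for 8 weeks. The labels give no sex, age, hour of collection or time after the sham operation, and they do not describe the sham procedure. Library numbers in the labels run from 1 to 8 over the sedentary and running hearts and from 9 to 24 over the operated ones. The operation and the cohort in which it was done therefore cannot be told apart. The labels also do not say that libraries of a group came from separate animals, so that p-values measure the spread between these samples, which may be in part technical.

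A sham operation takes an animal through anaesthesia, opening of the chest and recovery without the constriction, and serves as the reference for the constricted animals. The adult heart draws most of its energy from fatty acids, which mitochondria break down by beta oxidation; the acetyl groups enter the tricarboxylic acid cycle, and the electrons pass through the respiratory chain, whose subunits are encoded partly in the nucleus and partly in the mitochondrial genome. Branched-chain amino acids are burned in the same compartment. Class I molecules of the major histocompatibility complex (MHC) show peptides of the cell's own proteins at its surface, and their genes respond to interferons through STAT and IRF transcription factors and through NLRC5. In bulk tissue, fewer cells of a type and less RNA per cell cannot be told apart.

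The 12 libraries held 16802939 to 39512101 estimated counts (median 21933244), with 18646 to 20712 genes detected and the largest total in Sedentary 1. Genes of the mitochondrial genome took 59.8% to 69.9% of the counts. No share of counts compared between shams and sedentary hearts passed an adjusted p of 0.05. The mitochondrial ribosomal RNAs took 54.2% ± 2.24 (SD, n = 8) in the shams and 58.3% ± 3.63 (n = 4) in the sedentary hearts (p = 0.0283 in an exact permutation test, two-sided, and 0.15 when adjusted over 21 tests). The smallest p was that of unspliced regions of class TEC, at 0.0522% ± 0.00503 in the shams and 0.0634% ± 0.00159 in the sedentary hearts (p = 0.00606 in the same permutation test, adjusted 0.127). The labelled tissue was checked with 9 cardiomyocyte markers, all of them detected in every group, with a summed level of 46900.0 to 59250.0 CPM over the 12 libraries. The summed level of 7 atrial markers was low, with medians of 58.5 CPM in sedentary, 53 in Sham-LVH and 50.1 in Sham-HF hearts. How much atrial tissue the samples held was not tested. CPM are counts scaled to libraries of equal size with edgeR's TMM method across all 24 libraries. On the first principal component (28.4% of the variance) the sedentary hearts lay at -24.4 to -16.8, the Sham-HF hearts at -7.56 to 1.33 and the Sham-LVH hearts at 4.94 to 42.3.

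In both sham groups, some genes of mitochondrial fuel use and energy conversion were higher than in the sedentary hearts, among them Hadhb, Acadsb, Ndufs1 and Cox7b. Some genes of antigen presentation and of the interferon response were lower in both, among them H2-Q7, Tap1, Nlrc5 and Stat2. Most members of these gene lists were not called in Sham-HF alone, and the genes meeting the rule depended on scaling and on single libraries, as given below. The small mitochondrial ribosomal RNA mt-Rnr1 and the respiratory chain gene Uqcrq were lower too. The rises were small: the 100 higher genes had a median log2 fold change of 0.46 (range 0.28 to 0.89) and 0 of them reached a 2-fold rise. The 72 lower genes had a median of -0.68, and 16 of them fell at least 2-fold. Of the 100 higher genes, 95 were protein coding, as were 65 of the 72 lower ones.

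With the 8 shams as 1 group, 1244 genes were higher and 1094 lower than in the sedentary hearts (edgeR adjusted p under 0.05), which is 16.8% of the 13879 genes tested. Sham-LVH alone gave 1687 higher and 1564 lower genes (23.4% of the genes tested). Sham-HF alone gave 137 higher and 122 lower genes (1.87%). Of all genes tested, 8.96% were called higher and 7.88% lower in the pooled comparison. These shares were 12.2% and 11.3% in Sham-LVH and 0.987% and 0.879% in Sham-HF, and the list counts below are to be read beside them. The share meeting the rule was 0.721% of all genes tested for higher and 0.519% for lower calls. The number called in opposite directions in the 2 sham groups was 0; both comparisons share the 4 sedentary hearts. In 93 of the 100 higher and 59 of the 72 lower genes the 8 sham values did not overlap the 4 sedentary values, against 5.28% and 2.73% of all genes tested; the rule used these libraries, so that nothing is read from that difference. With library totals in place of TMM scaling, the pooled comparison gave 420 higher and 721 lower genes and the rule 1 higher and 39 lower.

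**Figure D1:**
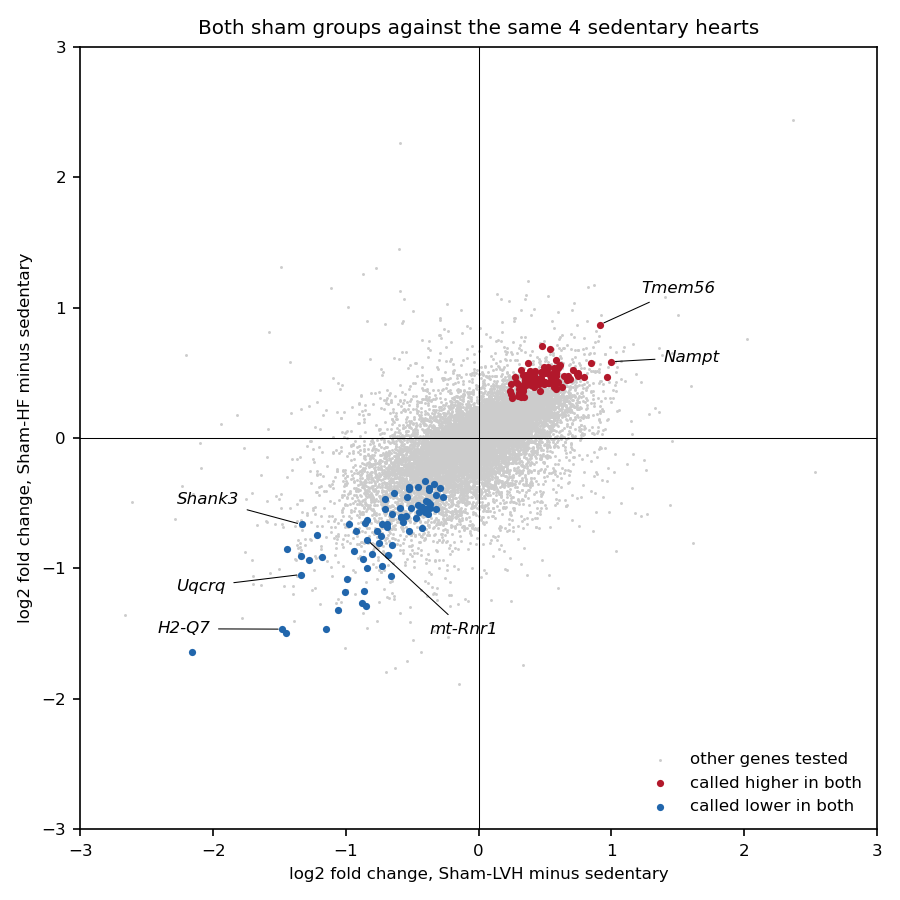
Log2 fold change of each of the genes tested in Sham-LVH (horizontal) and Sham-HF (vertical) against the same 4 sedentary hearts; red points are the 100 genes called higher in both and blue points the 72 called lower in both, and 9 genes, 1 of them blue, lie outside the axes. The red points reach up to 1.0 on the horizontal axis (Nampt), and the blue points extend further from 0, as H2-Q7 at -1.48 and -1.47.

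The number of genes meeting the rule depended on single libraries. It was 0 without Sedentary 3, 1 without Sedentary 2, 3 without Sham-HF 3, 14 without Sedentary 4 and 21 without Sedentary 1 or without Sham-HF 2. It was 371 without Sham-LVH 1, 264 without Sham-LVH 3, 100 without Sham-LVH 4, 72 without Sham-LVH 2, 71 without Sham-HF 4 and 47 without Sham-HF 1. In these 12 fits 169 to 172 of the 172 genes, which were chosen on the same libraries, stayed called with the 8 shams as 1 group (or 7, where a sham was left out). The genes that met the rule in at least 9 of the 12 fits were Rnf13, Retreg1, Canx, Stat2, Tap1, Gbp4 and mt-Rnr1, the last in 11. At the edge of the rule, Plxna3, Atp1b2 and Ces1d had a larger adjusted p of 0.0497, 0.0495 and 0.049 and were in; Adamts10, Psma3 and Safb2, each at 0.0501, were out.

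**Figure D2:**
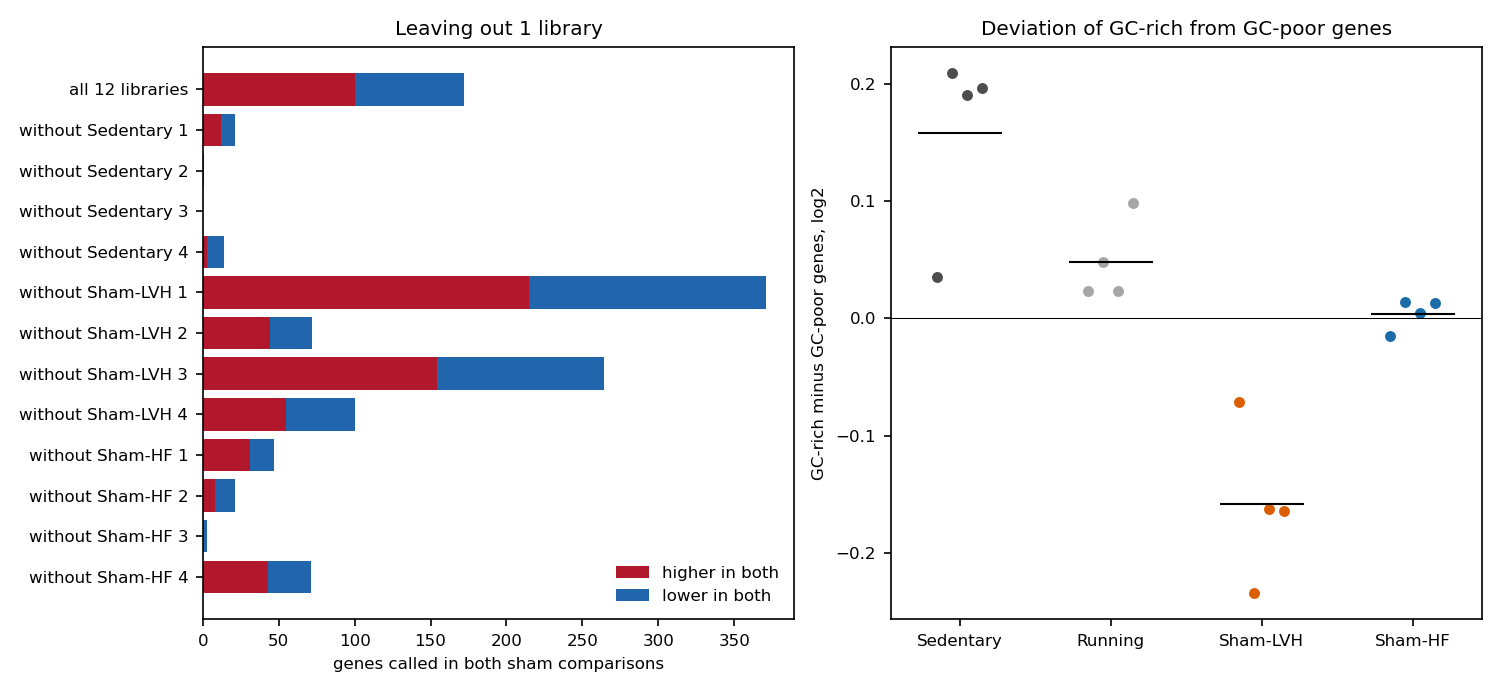
Left, the number of genes meeting the rule when 1 of the 12 libraries was left out; right, the level of GC-rich minus GC-poor genes (log2 units) in each library. The count ranged from 0 without Sedentary 3 to 371 without Sham-LVH 1, and each sham library lay below each sedentary library on the right.

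The base composition of transcripts moved with the comparison. Genes higher in both sham groups had a median transcript GC content of 42.3%, genes lower in both 54.9%, and all genes tested 49.4%. The median log2 deviation of the genes in the top quartile of GC content minus that of the genes in the bottom quartile was 0.0351 to 0.209 in the sedentary hearts, -0.0151 to 0.0138 in Sham-HF and -0.234 to -0.0715 in Sham-LVH (shams against sedentary: p = 0.00404 in an exact permutation test, two-sided, and 0.0121 when adjusted over 3 tests). It was 0.0236 to 0.0983 in the running hearts. Across 13785 genes the Spearman correlation of the shams' log2 fold change with GC content was -0.344. It was -0.365 for Sham-LVH and -0.244 for Sham-HF. The trend was not particular to the shams, as running against the same sedentary hearts gave -0.282 across 13598 genes. After a correction of each library's trend with GC content, 28 genes met the rule (16 higher and 12 lower), 20 of them from the 172. With the 8 shams as 1 group, 86 of the 100 higher and 63 of 71 lower genes with a GC value stayed called. The counts after that correction are given beside the gene groups below.

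Genes of fatty acid use were among the higher ones. Of the 28 genes of uptake and oxidation tested, 14 were higher and 1 lower in the pooled comparison, with a median log2 fold change of 0.27 against -0.014 over all genes; 8.96% of all genes were called higher. Sham-LVH gave 13 higher members (12.2% of all genes) and Sham-HF 7 (0.987% of all genes). The 7 that met the rule were Acaa2, Acadm, Cd36, Decr1, Hadh, Hadha and Hadhb; the lower one was the triglyceride lipase gene Pnpla2. After the GC correction 15 were higher and 0 lower in the pooled comparison, but 1 met the rule. With library totals 8 were higher, as without Sedentary 1 or Sedentary 4, and without Sham-LVH 2 or Sham-HF 3 the count was 9.

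Cd36 encodes the main fatty acid transporter of the cardiomyocyte membrane. Cd36 stood at 544, 533, 521 and 538 CPM in Sedentary 1 to 4, at 583, 872, 856 and 752 CPM in Sham-LVH 1 to 4 and at 733, 682, 767 and 698 CPM in Sham-HF 1 to 4. Each sham heart was above each sedentary heart, with Sham-LVH 1 the nearest to them. Cd36 rose 1.38-fold (log2 fold change 0.46, SE 0.092, edgeR adjusted p = 0.00649).

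Hadha and Hadhb encode the alpha and beta subunits of the mitochondrial trifunctional protein, which carries out the last steps of a round of oxidation of long-chain fatty acids. Hadhb stood at 429.9, 482, 467 and 448 CPM in Sedentary 1 to 4, at 517, 702, 755 and 683 CPM in Sham-LVH 1 to 4 and at 633, 723, 693 and 598 CPM in Sham-HF 1 to 4. The groups did not overlap, and Sham-LVH 1 was the lowest sham. Hadhb rose 1.44-fold (log2 fold change 0.52, SE 0.093, edgeR adjusted p = 0.00379), by log2 0.52 in Sham-LVH (adjusted p = 0.00308) and 0.53 in Sham-HF (adjusted p = 0.0295). Hadha stood at 326, 364, 375 and 324 CPM in Sedentary 1 to 4, at 383, 461, 496 and 438 CPM in Sham-LVH 1 to 4 and at 451, 537, 519 and 445 CPM in Sham-HF 1 to 4. The gap was narrow here, between Sedentary 3 and Sham-LVH 1. Hadha rose 1.33-fold (log2 fold change 0.41, SE 0.086, edgeR adjusted p = 0.00774); it overlaps Garem2 on the other strand.

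Decr1 encodes the reductase needed for unsaturated fatty acids. Decr1 stood at 65.6, 84.6, 83.7 and 74.5 CPM in Sedentary 1 to 4, at 92.5, 121, 140.4 and 124 CPM in Sham-LVH 1 to 4 and at 106, 126, 119.9 and 101 CPM in Sham-HF 1 to 4. No sham value fell within the sedentary range. The rise was 1.5-fold (log2 fold change 0.58, SE 0.11, edgeR adjusted p = 0.00429). Acadm, the medium-chain acyl-CoA dehydrogenase, was at 213 to 259 CPM in the sedentary hearts and 271 to 359.9 CPM in the shams and rose 1.36-fold (log2 0.44, edgeR adjusted p = 0.00675). Hadh, the short-chain hydroxyacyl-CoA dehydrogenase, was at 86.1 to 116 CPM in the sedentary hearts and 118 to 159.8 CPM in the shams and rose 1.35-fold (log2 0.44, edgeR adjusted p = 0.00905). Acaa2, the mitochondrial thiolase, overlapped between groups at 158 to 205 CPM in the sedentary hearts and 195 to 299 CPM in the shams (log2 0.49, edgeR adjusted p = 0.00859). Outside the list, the isomerase gene Ech1 (log2 0.42, edgeR adjusted p = 0.00818), the nuclear receptor gene Esrrg, an activator of mitochondrial genes (log2 0.42, edgeR adjusted p = 0.00666), and the lipoprotein receptor gene Vldlr (log2 0.33, edgeR adjusted p = 0.00917) met the rule too.

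In the tricarboxylic acid cycle, 14 of 21 genes were higher and 0 lower (median log2 fold change 0.29), where 8.96% of all genes were higher. Sham-LVH gave 11 and Sham-HF 5 higher members, beside 12.2% and 0.987% of all genes. Sucla2, Suclg2, Idh3g and Fh1 met the rule. After the GC correction 9 were called higher in the pooled comparison and 0 met the rule. The pooled count was 1 with library totals and 8 without Sedentary 1. Sucla2 encodes the ATP-forming beta subunit of succinyl-CoA ligase. Sucla2 stood at 103, 114, 116 and 124 CPM in Sedentary 1 to 4, at 141, 178, 189 and 161 CPM in Sham-LVH 1 to 4 and at 153, 157, 159 and 147 CPM in Sham-HF 1 to 4. All shams exceeded all sedentary hearts. Sucla2 rose 1.39-fold (log2 fold change 0.48, SE 0.085, edgeR adjusted p = 0.00368). Suclg2, the GTP-forming beta subunit of the same enzyme, was at 40.8 to 50.8 CPM in the sedentary hearts and 56.3 to 69.9 CPM in the shams (log2 0.38, edgeR adjusted p = 0.00827). Idh3g, a subunit of isocitrate dehydrogenase, was at 91.2 to 103 CPM in the sedentary hearts and 107 to 139.5 CPM in the shams (log2 0.36, edgeR adjusted p = 0.00939). Fh1, fumarate hydratase, was at 89.7 to 99.2 CPM in the sedentary hearts and 105 to 134 CPM in the shams (log2 0.35, edgeR adjusted p = 0.00861).

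Genes of branched-chain amino acid breakdown, a list added after the values were seen, had 14 of 24 members higher and 0 lower (median 0.27). In the same pooled comparison 8.96% of all genes were higher. Sham-LVH gave 12 and Sham-HF 8 higher members, beside 12.2% and 0.987% of all genes. The pooled count was 11 after the GC correction. After that correction 2 met the rule; the pooled count was 8 with library totals and 9 without Sedentary 4. Some of them also serve other pathways. Acadsb, Ppm1k, Mut, Aldh6a1 and Acat1 met the rule. Acadsb is the dehydrogenase acting on the short branched chains. Acadsb stood at 41.4, 42.5, 43.8 and 42.8 CPM in Sedentary 1 to 4, at 55.7, 67.6, 70.5 and 65.4 CPM in Sham-LVH 1 to 4 and at 57.9, 62.7, 68 and 54.3 CPM in Sham-HF 1 to 4. The sedentary values were close together and every sham lay above them. Acadsb rose 1.46-fold (log2 fold change 0.54, SE 0.08, edgeR adjusted p = 0.00222), by log2 0.58 in Sham-LVH (adjusted p = 0.000896) and 0.50 in Sham-HF (adjusted p = 0.0253); it overlaps Fgfr2 on the other strand.

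Ppm1k encodes the phosphatase that activates the branched-chain ketoacid dehydrogenase. Ppm1k stood at 45, 50.4, 44.8 and 47.7 CPM in Sedentary 1 to 4, at 67, 71.4, 68.7 and 78.7 CPM in Sham-LVH 1 to 4 and at 56.4, 70.4, 70.2 and 69.1 CPM in Sham-HF 1 to 4. The lowest sham, Sham-HF 1, was still above the highest sedentary heart. Ppm1k rose 1.45-fold (log2 fold change 0.54, SE 0.079, edgeR adjusted p = 0.00222). Mut, methylmalonyl-CoA mutase, was at 34.2 to 37.9 CPM in the sedentary hearts and 44.3 to 60.9 CPM in the shams (log2 0.52, edgeR adjusted p = 0.00283). Aldh6a1, which acts on the semialdehyde of valine breakdown, was at 60.8 to 70.9 CPM in the sedentary hearts and 84.9 to 108 CPM in the shams (log2 0.49, edgeR adjusted p = 0.00251). Acat1, the acetoacetyl-CoA thiolase, was at 118 to 142 CPM in the sedentary hearts and 159 to 198 CPM in the shams (log2 0.45, edgeR adjusted p = 0.00418). The dehydrogenase subunit Bckdha was called in Sham-HF alone, with log2 fold changes of 0.0065 in Sham-LVH (adjusted p = 0.964) and 0.35 in Sham-HF (adjusted p = 0.0423), and it was higher in Sham-HF than in Sham-LVH (difference 0.34, SE 0.083, edgeR adjusted p = 0.0253). Bckdk, the kinase that inactivates the dehydrogenase, was higher in the pooled comparison (log2 0.32, edgeR adjusted p = 0.0307), a call lost without Sedentary 1 (adjusted p = 0.108).

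The nuclear genes of the respiratory chain had the largest share of calls among the lists with over 20 members tested: 32 of 44 were higher and 1 (Ndufa8) was lower, with a median of 0.33. Of all genes 8.96% were higher in the pooled comparison. Sham-LVH gave 29 and Sham-HF 5 higher members, beside 12.2% and 0.987% of all genes. Cox7b, Ndufs1 and Ndufv2 met the rule. After the GC correction 31 were higher, with library totals 12 and without Sedentary 1 16; the rule was met by 1 after the GC correction. Cox7b encodes a small subunit of cytochrome c oxidase. Cox7b stood at 96.4, 103, 109 and 90.9 CPM in Sedentary 1 to 4, at 139, 195, 226 and 171 CPM in Sham-LVH 1 to 4 and at 158, 155, 158 and 128 CPM in Sham-HF 1 to 4. The lowest sham, Sham-HF 4, was above the highest sedentary heart. Cox7b rose 1.64-fold (log2 fold change 0.71, SE 0.11, edgeR adjusted p = 0.00247).

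Ndufs1 encodes the largest subunit of complex I. Ndufs1 stood at 193, 201, 199 and 199 CPM in Sedentary 1 to 4, at 235, 297, 309 and 275 CPM in Sham-LVH 1 to 4 and at 262, 292, 284 and 254 CPM in Sham-HF 1 to 4. Sedentary hearts differed little from each other, and each sham was higher. Ndufs1 rose 1.38-fold (log2 fold change 0.47, SE 0.079, edgeR adjusted p = 0.003). Ndufv2, another core subunit of complex I, was at 94.3 to 107 CPM in the sedentary hearts and 122 to 195 CPM in the shams (log2 0.56, edgeR adjusted p = 0.00373). Beside them, Immt, the organiser of the inner membrane's cristae, rose to 189.9 CPM (median of the shams; log2 0.32, edgeR adjusted p = 0.00897), and its partner Apoo rose as well (log2 0.62, edgeR adjusted p = 0.003).

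Uqcrq, a small subunit of complex III that is not on the list, went the other way. Uqcrq stood at 51.4, 55.6, 60.4 and 45.6 CPM in Sedentary 1 to 4, at 30.2, 16.1, 16 and 22.9 CPM in Sham-LVH 1 to 4 and at 26.7, 27.9, 24.5 and 24.3 CPM in Sham-HF 1 to 4. All 8 shams lay below all 4 sedentary hearts, with Sham-LVH 2 and 3 the lowest. Uqcrq fell 2.29-fold (log2 fold change -1.19, SE 0.14, edgeR adjusted p = 0.00222), by log2 -1.34 in Sham-LVH (adjusted p = 0.000648) and -1.05 in Sham-HF (adjusted p = 0.0253). The running hearts held 53.5, 50.1, 55.6 and 56 CPM, within the sedentary range. After the GC correction the fall was -1.18 (adjusted p = 0.00426).

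**Figure D3:**
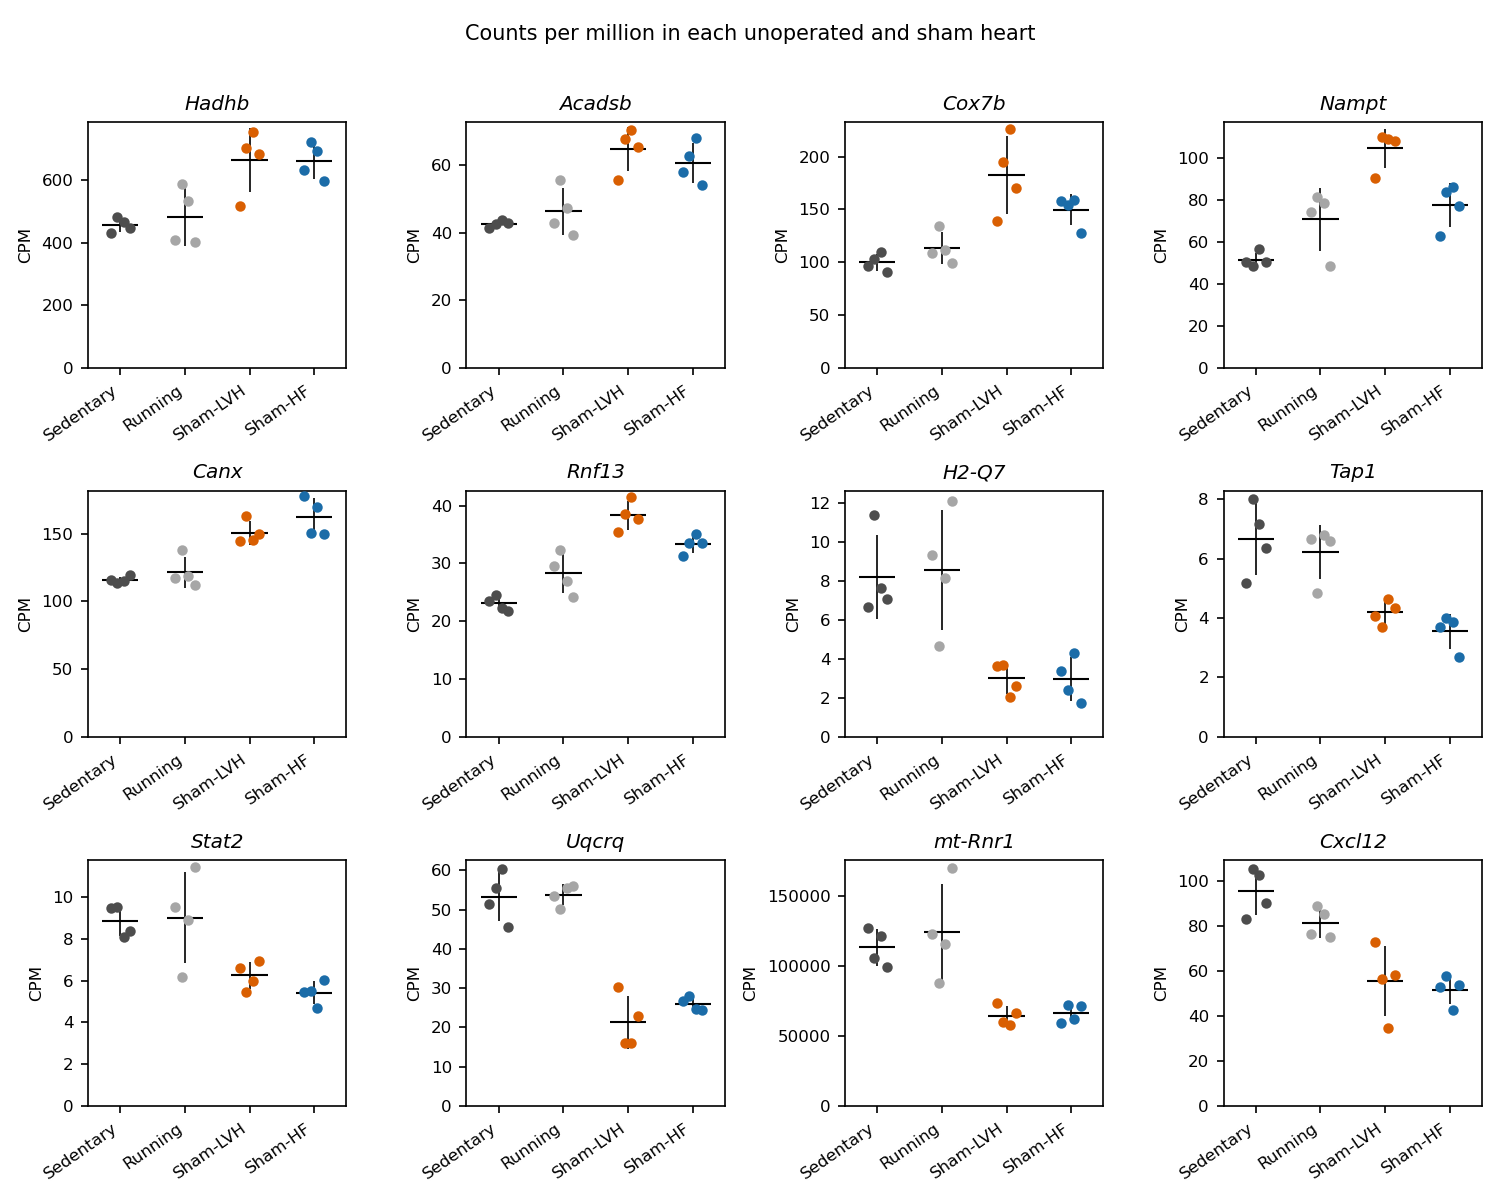
CPM of 12 genes in each library of the sedentary, running, Sham-LVH and Sham-HF groups (points), with the mean of 4 libraries (line) and the SD (bar). In each of the 12 panels the 8 sham points lie apart from the 4 sedentary points, above them for Hadhb, Acadsb, Cox7b, Nampt, Canx and Rnf13 and below them for H2-Q7, Tap1, Stat2, Uqcrq, mt-Rnr1 and Cxcl12.

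Among the 15 genes of the mitochondrial genome tested, some protein-coding members rose, and the ribosomal RNA mt-Rnr1 was the only member called lower. In the pooled comparison 7 were higher and 1 lower (median 0.25), beside 8.96% and 7.88% of all genes. The genes mt-Nd2, mt-Nd3, mt-Co1, mt-Co3 and mt-Atp8 met the rule upward and mt-Rnr1 downward. mt-Rnr1 is the RNA of the small mitochondrial ribosomal subunit. mt-Rnr1 stood at 127065, 105313, 121498 and 99062 CPM in Sedentary 1 to 4, at 73096, 59678, 57744 and 66367 CPM in Sham-LVH 1 to 4 and at 59104, 72125, 61976 and 71258 CPM in Sham-HF 1 to 4. The lowest sedentary heart was above the highest sham. mt-Rnr1 fell 1.75-fold (log2 fold change -0.81, SE 0.088, edgeR adjusted p = 0.000335), by log2 -0.84 in Sham-LVH (adjusted p = 0.000432) and -0.78 in Sham-HF (adjusted p = 0.00964); its call in both groups held in 11 of the 12 fits without 1 library. The libraries were made after depletion of ribosomal RNA, and whether that step differed between groups was not tested. The running hearts were at 122661, 87940.5, 115291 and 169783 CPM.

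mt-Co1 encodes the catalytic subunit of cytochrome c oxidase. mt-Co1 stood at 32082, 29932, 30559 and 31217 CPM in Sedentary 1 to 4, at 38520.3, 42297, 38392 and 40948 CPM in Sham-LVH 1 to 4 and at 38455, 46066, 40953 and 44901 CPM in Sham-HF 1 to 4. The ranges did not overlap. mt-Co1 rose 1.32-fold (log2 fold change 0.40, SE 0.071, edgeR adjusted p = 0.00368). The complex I subunit genes mt-Nd2 (log2 0.44, edgeR adjusted p = 0.00335) and mt-Nd3 (log2 0.48, edgeR adjusted p = 0.00283) rose by similar amounts, as did mt-Co3 (log2 0.38, edgeR adjusted p = 0.00602) and mt-Atp8 (log2 0.54, edgeR adjusted p = 0.00758). The nuclear pseudogenes Gm10925 (log2 0.50, edgeR adjusted p = 0.00661) and Gm28437 (log2 0.44, edgeR adjusted p = 0.00614) carry copies of mitochondrial sequence, so that their counts and those of the genes they copy are uncertain. After the GC correction 5 mitochondrial genes were higher and 1 was lower in the pooled comparison, and 1 met the rule.

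Nampt rose most among the named higher genes with a mean of at least 2 CPM. It encodes the rate-limiting enzyme of NAD salvage. Nampt stood at 50.5, 48.7, 56.5 and 50.4 CPM in Sedentary 1 to 4, at 90.8, 110.3, 109 and 108 CPM in Sham-LVH 1 to 4 and at 63.1, 84.1, 86.1 and 77.2 CPM in Sham-HF 1 to 4. The 3 tiers were separate, with sedentary lowest, Sham-HF next and Sham-LVH highest. Nampt rose 1.73-fold (log2 fold change 0.79, SE 0.09, edgeR adjusted p = 0.000335), by log2 1.00 in Sham-LVH (adjusted p = 8.14e-05) and 0.59 in Sham-HF (adjusted p = 0.0253), and Sham-HF was below Sham-LVH (difference -0.41, SE 0.10, edgeR adjusted p = 0.0257). It overlaps Gdap10 on the same strand, and the running hearts held 74.5, 81.6, 78.8 and 48.7 CPM. Chrm2, the muscarinic receptor through which the vagus slows the heart, showed the same order. Chrm2 stood at 41.6, 48.1, 43.9 and 46.9 CPM in Sedentary 1 to 4, at 72, 98.7, 106 and 81.2 CPM in Sham-LVH 1 to 4 and at 59.3, 68.6, 65 and 57.7 CPM in Sham-HF 1 to 4. Sham-LVH again exceeded Sham-HF. Chrm2 rose 1.64-fold (log2 fold change 0.72, SE 0.10, edgeR adjusted p = 0.00222), with a difference of -0.50, SE 0.11, edgeR adjusted p = 0.017 for Sham-HF minus Sham-LVH; it overlaps 9330158H04Rik on the other strand. Nampt and Chrm2 were the 2 of the 100 higher genes that differed between the sham groups, where 4.68% of all genes tested did. The transmembrane gene Tmem56 had the largest log2 fold change, but at 1.08 to 1.27 CPM in the sedentary hearts and 1.7 to 2.82 CPM in the shams (log2 0.89, edgeR adjusted p = 0.00621).

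Cacna2d1 encodes the alpha2-delta subunit of the L-type calcium channel. Cacna2d1 stood at 67.4, 75, 74.7 and 76.4 CPM in Sedentary 1 to 4, at 98.9, 132, 129 and 120.2 CPM in Sham-LVH 1 to 4 and at 96.1, 105, 108 and 93.3 CPM in Sham-HF 1 to 4. Every sham was above every sedentary heart. Cacna2d1 rose 1.48-fold (log2 fold change 0.57, SE 0.084, edgeR adjusted p = 0.00222). Of the 16 calcium-handling genes 5 were higher and 1 lower, beside 8.96% and 7.88% of all genes. The counts were 3 and 0 after the GC correction. Without any 1 of 8 libraries, among them Sedentary 1, 2 and 3, 3 were higher. Trdn, the triadin of the calcium release unit, met the rule (log2 0.41, edgeR adjusted p = 0.00422). The neuregulin receptor gene Erbb4 (log2 0.52, edgeR adjusted p = 0.00703) and the kinase subunit gene Pik3ca (log2 0.32, edgeR adjusted p = 0.00945) met it as well.

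Genes of the endoplasmic reticulum were also among the higher ones. Of 21 endoplasmic reticulum stress genes 8 were higher and 0 lower (median 0.30), where 8.96% of all genes were higher. Sham-LVH gave 3 and Sham-HF 4 higher members, beside 12.2% and 0.987% of all genes. After the GC correction 5 were higher in the pooled comparison. The pooled count was 4 with library totals, 2 without Sedentary 2 or Sedentary 3, 4 without Sham-LVH 2 and 5 without Sedentary 1, Sedentary 4 or Sham-HF 3. Canx, the lectin chaperone calnexin, and Dnajb9 met the rule, and 0 members did after the GC correction. Canx stood at 116, 113, 115 and 119 CPM in Sedentary 1 to 4, at 145, 163, 145 and 149 CPM in Sham-LVH 1 to 4 and at 178, 151, 169 and 149.6 CPM in Sham-HF 1 to 4. Sedentary hearts spanned a narrow range, and the lowest sham was well above it. Canx rose 1.34-fold (log2 fold change 0.42, SE 0.072, edgeR adjusted p = 0.00311), by log2 0.36 in Sham-LVH (adjusted p = 0.00536) and 0.48 in Sham-HF (adjusted p = 0.0253). The co-chaperone gene Dnajb9 was at 7.78 to 10.3 CPM in the sedentary hearts and 11.5 to 14.9 CPM in the shams (log2 0.53, edgeR adjusted p = 0.00484). The signal peptidase gene Spcs3 (log2 0.39, edgeR adjusted p = 0.0101) and the retrieval receptor gene Kdelr2 (log2 0.37, edgeR adjusted p = 0.0071) met the rule outside the list, though Spcs3 missed the threshold in the pooled comparison after the GC correction (adjusted p = 0.0678).

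Rnf13, a ubiquitin ligase of endosomal and lysosomal membranes, had the most stable call of the higher genes. Rnf13 stood at 23.5, 24.6, 22.3 and 21.8 CPM in Sedentary 1 to 4, at 35.4, 38.6, 41.5 and 37.7 CPM in Sham-LVH 1 to 4 and at 31.3, 33.6, 35.1 and 33.5 CPM in Sham-HF 1 to 4. The groups were far apart relative to their spread. Rnf13 rose 1.53-fold (log2 fold change 0.62, SE 0.071, edgeR adjusted p = 0.000335). Retreg1 is a receptor for the autophagy of the endoplasmic reticulum. Retreg1 stood at 62.5, 68.6, 50.6 and 62.9 CPM in Sedentary 1 to 4, at 73, 92.8, 87 and 108 CPM in Sham-LVH 1 to 4 and at 87, 97.8, 105 and 103 CPM in Sham-HF 1 to 4. Sham-LVH 1 was the lowest sham, above Sedentary 2. Retreg1 rose 1.52-fold (log2 fold change 0.61, SE 0.10, edgeR adjusted p = 0.00283).

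Sumo2, a ubiquitin-like modifier, and Glrx3, a glutaredoxin of iron-sulphur cluster handling, rose to like extents. Sumo2 stood at 18.5, 18.8, 18 and 15.8 CPM in Sedentary 1 to 4, at 25.6, 34.7, 34.5 and 30.5 CPM in Sham-LVH 1 to 4 and at 24.7, 25.9, 26.2 and 22 CPM in Sham-HF 1 to 4. Glrx3 stood at 17, 18.7, 16.8 and 18.7 CPM in Sedentary 1 to 4, at 24.3, 33.2, 34.9 and 29.3 CPM in Sham-LVH 1 to 4 and at 25.8, 25.9, 28.1 and 21.2 CPM in Sham-HF 1 to 4. Neither gene's groups overlapped. Sumo2 rose 1.55-fold (log2 fold change 0.63, SE 0.09, edgeR adjusted p = 0.00222) and Glrx3 1.54-fold (log2 fold change 0.63, SE 0.10, edgeR adjusted p = 0.00247). Further members of the higher set were the translation initiation genes Eif3e (log2 0.57, edgeR adjusted p = 0.00247) and Eif2a (log2 0.46, edgeR adjusted p = 0.0062), the chaperonin genes Cct4 (log2 0.37, edgeR adjusted p = 0.00893) and Cct6a (log2 0.44, edgeR adjusted p = 0.0071), and the vesicle transport genes Rab2a (log2 0.50, edgeR adjusted p = 0.00247) and Vps35 (log2 0.51, edgeR adjusted p = 0.00247). The prolyl isomerase gene Fkbp3, antisense to Prpf39 (log2 0.61, edgeR adjusted p = 0.00262), the kynurenine aminotransferase gene Kyat3 (log2 0.57, edgeR adjusted p = 0.00327), the glutathione transferase gene Mgst3 (log2 0.55, edgeR adjusted p = 0.00448) and the mitochondrial gene Nipsnap2 (log2 0.45, edgeR adjusted p = 0.00563) completed the named ones.

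Genes of cytosolic ribosomal proteins did not meet the rule. Of 34 tested, 19 were higher in the pooled comparison and 26 in Sham-LVH, but 0 in Sham-HF (medians 0.42 and 0.20). Of all genes 8.96%, 12.2% and 0.987% were higher in these comparisons. In the pooled comparison 22 were higher after the GC correction, 4 with library totals, 9 without Sedentary 1, 8 without Sedentary 4 and 11 without Sham-LVH 2 or Sham-HF 3.

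**Figure D4:**
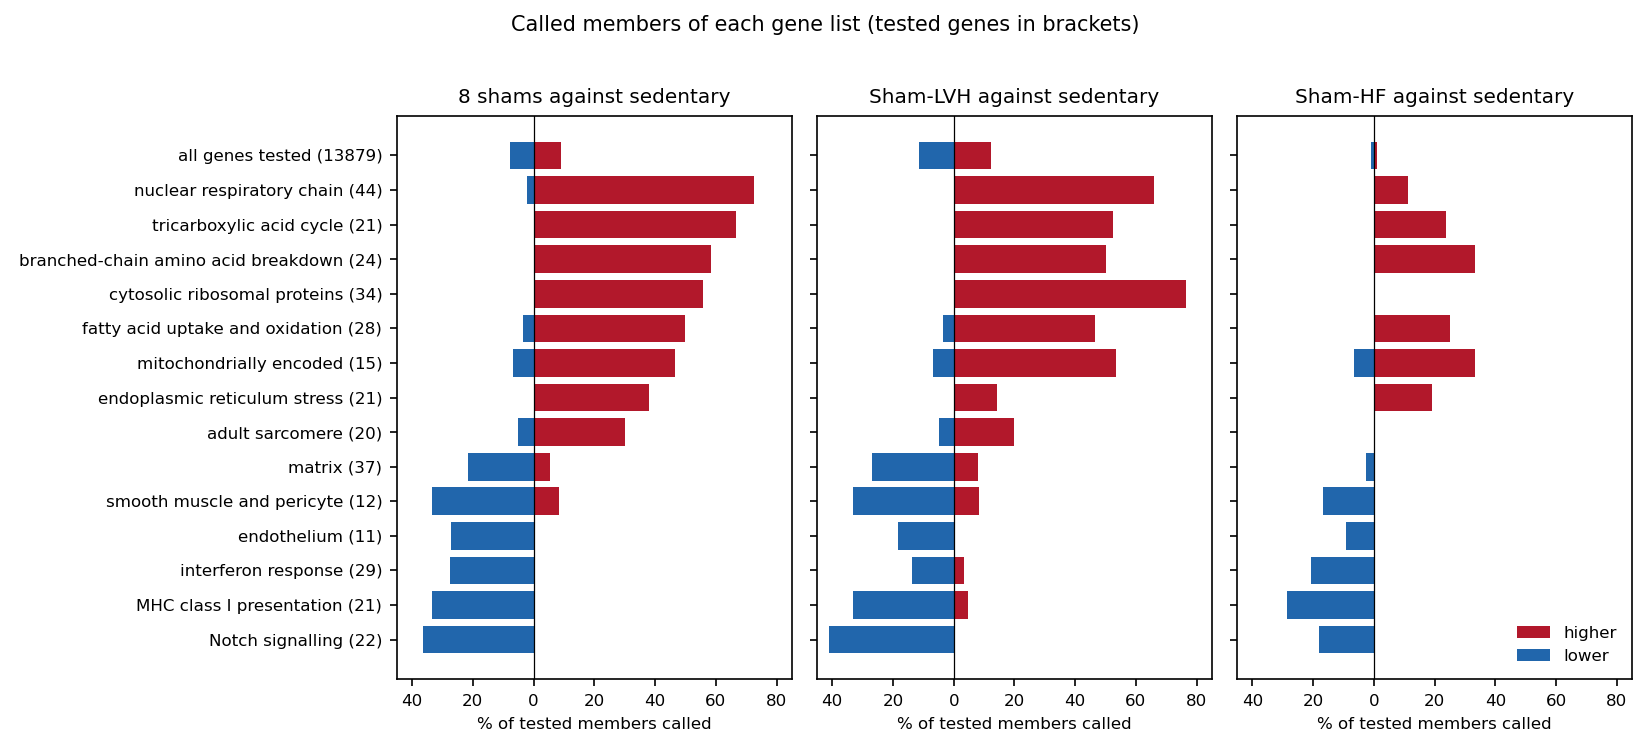
Percent of tested members called higher (positive side) or lower (negative side) against the sedentary hearts in each gene list, for the 8 shams, Sham-LVH and Sham-HF in separate panels. Respiratory chain, tricarboxylic acid cycle and fatty acid lists reach 72.7%, 66.7% and 50% higher in the pooled panel and 11.4%, 23.8% and 25% in the Sham-HF panel. The class I list is 28.6% lower in Sham-HF and 33.3% in Sham-LVH. Interferon response (20.7% lower against 13.8%) and endoplasmic reticulum stress (19% higher against 14.3%) have more calls in Sham-HF.

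Genes of MHC class I presentation and of the interferon response were among the lower ones. Of 21 class I presentation genes tested, a list added after the values were seen, 0 were higher and 7 lower in the pooled comparison (median -0.30), where 7.88% of all genes were called lower. The counts lower were 7 in Sham-LVH (11.3% of all genes) and 6 in Sham-HF (0.879% of all genes), 7 after the GC correction and 7 to 8 with 1 library left out. H2-Q7, H2-Q6, H2-Q4, H2-D1, Nlrc5 and Tap1 met the rule, and 2 members did after the GC correction. Of 29 interferon response genes 8 were lower and 0 higher (median -0.23), with 4 lower in Sham-LVH, 6 in Sham-HF and 8 after the GC correction. Without Sedentary 3 the pooled count was 5. Stat2, Gbp4 and Tap1 met the rule from that list, and 3 members did after the GC correction.

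The 250 bases before the annotated start of H2-Q6, H2-Q7 and Stat2 are shown because these 3 lower genes carry, in a window free of annotated exons, the motifs that interferon-responsive and class I promoters are known for. Sequences are those of RefSeq in build GRCm38.p6, all on the + strand, written 5′ to 3′ and ending next to the start. H2-Q6 is chr17:35424600-35424849, H2-Q7 is chr17:35438905-35439154 and Stat2 is chr10:128270248-128270497. Capitals mark, on either strand, the interferon-stimulated response element (ISRE, that is GAAA, NN and GAAA in a row), an IRF core (GAA, NN and GAAAC in a row), enhancer A (GGGATTCCC), the X2 box (TGATGAC) and the Y box (CCAAT). The choice of motifs was made with the letters in view.
H2-Q6: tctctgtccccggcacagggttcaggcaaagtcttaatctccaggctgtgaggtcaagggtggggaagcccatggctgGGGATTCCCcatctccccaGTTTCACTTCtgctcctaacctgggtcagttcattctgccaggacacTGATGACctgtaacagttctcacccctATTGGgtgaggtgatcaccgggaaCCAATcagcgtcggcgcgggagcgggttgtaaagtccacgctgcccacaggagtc
H2-Q7: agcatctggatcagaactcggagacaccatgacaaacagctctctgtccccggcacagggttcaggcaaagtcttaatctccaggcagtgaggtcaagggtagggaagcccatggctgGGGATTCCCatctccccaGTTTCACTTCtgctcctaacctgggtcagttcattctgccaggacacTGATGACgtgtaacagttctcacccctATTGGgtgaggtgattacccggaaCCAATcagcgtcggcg
Stat2: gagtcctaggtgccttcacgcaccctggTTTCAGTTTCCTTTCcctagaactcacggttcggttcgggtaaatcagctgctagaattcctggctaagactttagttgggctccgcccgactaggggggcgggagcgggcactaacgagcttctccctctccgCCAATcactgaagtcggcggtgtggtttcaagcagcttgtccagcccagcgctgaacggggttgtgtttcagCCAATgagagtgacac
In H2-Q6 the IRF core begins 153 bases before the start, enhancer A 172, the X2 box 106 and the Y box farther from the start 79; in H2-Q7 these distances are 114, 132, 67 and 40. H2-Q6 and H2-Q7 are near-identical relatives, and the promoters of H2-D1 and H2-Q4 are closely alike to theirs, so that the letters these 4 genes share are not independent. In Stat2 an ISRE (222) and an IRF core (217) overlap. Over the 10081 tested genes with a sequence, an ISRE was found in 3.16% of promoters, the IRF core in 1.51%, enhancer A in 0.407%, the X2 box in 2.8% and the Y box in 40%. Of 72 lower genes 47 had a sequence, and 5 held the IRF core (H2-D1, H2-Q4, H2-Q6, H2-Q7 and Stat2), 4 the X2 box and 2 an ISRE (Cope and Stat2). Of 100 higher genes 66 had a sequence, with 1, 0 and 2 of the same. The 4 X2 boxes lay in the same class I relatives as 4 of the 5 IRF cores. Tap1, also lower in both sham groups, held 1 Y box and 0 of the other motifs, in a window covered by annotated exons. Since the motifs were chosen with the letters in view, nothing is read from the counts beside the shares of all promoters. A match describes these letters and is not shown to be a site of binding.

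H2-Q7 and H2-Q6 encode class I molecules of the Q region. H2-Q7 stood at 6.67, 11.4, 7.67 and 7.08 CPM in Sedentary 1 to 4, at 3.63, 3.7, 2.07 and 2.63 CPM in Sham-LVH 1 to 4 and at 3.41, 2.39, 4.31 and 1.75 CPM in Sham-HF 1 to 4. All shams were below all sedentary hearts. H2-Q7 fell 2.78-fold (log2 fold change -1.47, SE 0.21, edgeR adjusted p = 0.00247), by log2 -1.48 in Sham-LVH (adjusted p = 0.00187) and -1.47 in Sham-HF (adjusted p = 0.0295). H2-Q6 stood at 5.87, 8.9, 6.77 and 5.58 CPM in Sedentary 1 to 4, at 3.24, 3.65, 2.25 and 3.35 CPM in Sham-LVH 1 to 4 and at 1.89, 3.38, 3.41 and 1.05 CPM in Sham-HF 1 to 4. Again no sham reached the sedentary range. H2-Q6 fell 2.47-fold (log2 fold change -1.31, SE 0.22, edgeR adjusted p = 0.00448). Counts of these relatives are uncertain where reads fit more than 1 of them.

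H2-D1 is a classical class I heavy chain gene with a higher level. H2-D1 stood at 44.9, 53.3, 44.7 and 42.5 CPM in Sedentary 1 to 4, at 33.2, 31.9, 27.8 and 32.7 CPM in Sham-LVH 1 to 4 and at 35, 31.7, 34.1 and 21.5 CPM in Sham-HF 1 to 4. The highest sham, Sham-HF 1, was below the lowest sedentary heart. H2-D1 fell 1.51-fold (log2 fold change -0.60, SE 0.10, edgeR adjusted p = 0.00364). H2-Q4 was at 6.96 to 11.7 CPM in the sedentary hearts and 4.23 to 6.94 CPM in the shams (log2 -0.78, edgeR adjusted p = 0.00344). The other classical gene, H2-K1, overlapped between groups at 31.7 to 48.1 CPM in the sedentary hearts and 18.6 to 33.5 CPM in the shams and missed the threshold (log2 -0.39, edgeR adjusted p = 0.0529). B2m, the shared light chain, was at 46.4 to 63.8 CPM in the sedentary hearts and 39 to 74.1 CPM in the shams (log2 0.032, edgeR adjusted p = 0.892).

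Nlrc5 encodes the transactivator of class I genes. Nlrc5 stood at 5.9, 7.83, 6.83 and 4.32 CPM in Sedentary 1 to 4, at 3.53, 2.81, 1.88 and 2.24 CPM in Sham-LVH 1 to 4 and at 2.85, 3.77, 3.91 and 2.51 CPM in Sham-HF 1 to 4. The sedentary hearts were all above the shams, with Sedentary 4 nearest to them. Nlrc5 fell 2.15-fold (log2 fold change -1.10, SE 0.17, edgeR adjusted p = 0.00251). Tap1 and Tap2 form the peptide transporter that loads class I molecules. Tap1 stood at 5.16, 8.01, 7.17 and 6.36 CPM in Sedentary 1 to 4, at 4.06, 3.7, 4.65 and 4.34 CPM in Sham-LVH 1 to 4 and at 3.68, 3.99, 3.86 and 2.69 CPM in Sham-HF 1 to 4. Sedentary 1 was the lowest of its group and still above the shams. Tap1 fell 1.73-fold (log2 fold change -0.79, SE 0.13, edgeR adjusted p = 0.00283), by log2 -0.68 in Sham-LVH (adjusted p = 0.00477) and -0.90 in Sham-HF (adjusted p = 0.0253); it overlaps Psmb9 on the other strand. Tap2 did not overlap between groups either (log2 -0.54, edgeR adjusted p = 0.00859), but was called in Sham-LVH only: log2 -0.64 in Sham-LVH (adjusted p = 0.00412) and -0.45 in Sham-HF (adjusted p = 0.0944).

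Stat2 is the transcription factor of type I interferon signalling. Stat2 stood at 9.47, 9.51, 8.07 and 8.4 CPM in Sedentary 1 to 4, at 6.62, 5.44, 5.98 and 6.94 CPM in Sham-LVH 1 to 4 and at 5.48, 5.51, 4.71 and 6.02 CPM in Sham-HF 1 to 4. The gap between the groups was clear in all 12 libraries. Stat2 fell 1.54-fold (log2 fold change -0.62, SE 0.10, edgeR adjusted p = 0.00251), by log2 -0.52 in Sham-LVH (adjusted p = 0.00436) and -0.72 in Sham-HF (adjusted p = 0.0253). Gbp4 is an interferon-induced GTPase gene near relatives of its family, with which it overlaps on the same strand. Gbp4 stood at 13.7, 14.2, 17.2 and 11.4 CPM in Sedentary 1 to 4, at 8.97, 10.2, 6.09 and 9.54 CPM in Sham-LVH 1 to 4 and at 5.94, 6.76, 9.37 and 6.72 CPM in Sham-HF 1 to 4. No sham reached the lowest sedentary heart, Sedentary 4. Gbp4 fell 1.81-fold (log2 fold change -0.85, SE 0.14, edgeR adjusted p = 0.00283). Outside the lists, the RNA-editing enzyme gene Adar (log2 -0.41, edgeR adjusted p = 0.00462), Parp10, a mono-ADP-ribosyltransferase gene (log2 -0.48, edgeR adjusted p = 0.007), and Uba7, which activates the ubiquitin-like ISG15 (log2 -0.49, edgeR adjusted p = 0.00582), met the rule. In the running hearts Stat2 stood at 9.51, 6.19, 8.91 and 11.4 CPM and H2-Q7 at 9.35, 4.65, 8.15 and 12.1 CPM, so that Running 2 lay below the sedentary range for both.

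Notch signalling genes had lower members too. Of 22 tested, on a list added after the values were seen, 8 were lower and 0 higher (median -0.29), where 7.88% of all genes were lower. Sham-LVH gave 9 and Sham-HF 4 lower members, beside 11.3% and 0.879% of all genes. After the GC correction 3 were lower in the pooled comparison and 0 met the rule. The pooled count was 5 without any 1 of Sedentary 1, Sedentary 4, Sham-LVH 2, Sham-LVH 3, Sham-HF 2 and Sham-HF 4. Notch3 is the receptor of vascular smooth muscle and pericytes. Notch3 stood at 35.9, 38.3, 42.5 and 40.1 CPM in Sedentary 1 to 4, at 37.9, 27.9, 21.3 and 29.5 CPM in Sham-LVH 1 to 4 and at 25.9, 28.4, 25.2 and 26.7 CPM in Sham-HF 1 to 4. Sham-LVH 1 lay within the sedentary range and the other shams below it. Notch3 fell 1.42-fold (log2 fold change -0.51, SE 0.11, edgeR adjusted p = 0.00861), but after the GC correction missed the threshold (adjusted p = 0.0583). The ligand gene Jag2 (log2 -0.59, edgeR adjusted p = 0.00283), the target gene Heyl (log2 -0.50, edgeR adjusted p = 0.00521) and the ligase gene Dtx3 (log2 -0.62, edgeR adjusted p = 0.00262) met the rule without overlap between groups. Notch1 was called in Sham-LVH and not in Sham-HF, with log2 fold changes of -0.70 in Sham-LVH (adjusted p = 0.00148) and -0.18 in Sham-HF (adjusted p = 0.429) and a difference of 0.52, SE 0.12, edgeR adjusted p = 0.023.

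Single markers of the cells of the vessel wall were lower as well, while their summed levels overlapped between the groups. Of 12 smooth muscle and pericyte markers 1 was higher and 4 lower (0 of them after the GC correction; 7.88% of all genes were called lower), with summed levels of 755.7 to 840.6 CPM in sedentary, 810.7 to 888.2 in Sham-LVH and 787.2 to 814.6 in Sham-HF hearts. Of 11 endothelial markers 3 were lower and 0 higher (2 lower after the GC correction), with sums of 727.2 to 930.8, 720.1 to 770.4 and 668.4 to 832.1 CPM. None of these markers was at 0 in a group, and their part in the Notch result was not tested. Pdgfrb, the pericyte receptor (log2 -0.34, edgeR adjusted p = 0.0116), Cdh5, the endothelial cadherin (log2 -0.38, edgeR adjusted p = 0.0107), and Ephb4, a venous endothelial receptor (log2 -0.39, edgeR adjusted p = 0.00839), met the rule, the first with a value at the edge of the call without Sedentary 3 (adjusted p = 0.049). The long noncoding RNA gene Carmn, a smooth muscle transcript, fell 1.69-fold (log2 -0.75, edgeR adjusted p = 0.00283).

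Several genes of secreted signals and transcription factors were lower. Cxcl12 encodes a chemokine that retains blood-forming and immune cells. Cxcl12 stood at 83.2, 105, 103 and 90.3 CPM in Sedentary 1 to 4, at 72.8, 56.6, 34.6 and 58 CPM in Sham-LVH 1 to 4 and at 52.8, 57.7, 42.4 and 53.7 CPM in Sham-HF 1 to 4. All shams were below the sedentary hearts, with Sham-LVH 3 lowest and Sham-LVH 1 highest among them. Cxcl12 fell 1.8-fold (log2 fold change -0.85, SE 0.15, edgeR adjusted p = 0.00578). Tbx3 is a transcription factor of the conduction system. Tbx3 stood at 9.04, 7.12, 8.24 and 7.92 CPM in Sedentary 1 to 4, at 5.7, 3.82, 2.77 and 4.95 CPM in Sham-LVH 1 to 4 and at 5.16, 4.38, 5.76 and 4.56 CPM in Sham-HF 1 to 4. The groups did not overlap. Tbx3 fell 1.76-fold (log2 fold change -0.82, SE 0.14, edgeR adjusted p = 0.00368). Tcf21, the factor of epicardial cells and fibroblasts, was at 1.98 to 3.14 CPM in the sedentary hearts and 0.952 to 2.1 CPM in the shams (log2 -0.86, edgeR adjusted p = 0.00703). Of 10 fibroblast markers 2 were higher and 2 lower (0 and 1 after the GC correction), beside 8.96% and 7.88% of all genes. Their sums were 836.8 to 1052 CPM in sedentary, 963.7 to 1236 in Sham-LVH and 823.8 to 1124 in Sham-HF hearts. The transcription factor genes Ebf3 (log2 -0.74, edgeR adjusted p = 0.00322) and Elk3, antisense to Cdk17 (log2 -0.57, edgeR adjusted p = 0.00339), and the cyclin gene Ccnd1 (log2 -0.47, edgeR adjusted p = 0.007) also met the rule. E2f7, a repressor of cell cycle genes, was at 0.903 to 1.91 CPM in the sedentary hearts and 0.332 to 0.819 CPM in the shams (log2 -1.19, edgeR adjusted p = 0.00897), a call lost without Sedentary 1 (adjusted p = 0.0579). Ier2 was the only immediate early gene of 23 tested that was called in the pooled comparison, at 2.1 to 3.04 CPM in the sedentary hearts and 0.854 to 1.61 CPM in the shams (log2 -1.12, edgeR adjusted p = 0.00247).

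Shank3 encodes a scaffold protein best known from synapses. Shank3 stood at 42.7, 39.5, 36.6 and 38.5 CPM in Sedentary 1 to 4, at 21.6, 14.2, 10.1 and 17.4 CPM in Sham-LVH 1 to 4 and at 27.2, 24.6, 24.4 and 23.5 CPM in Sham-HF 1 to 4. Sham-LVH lay lowest, Sham-HF between, and no values overlapped. Shank3 fell 2-fold (log2 fold change -0.9984, SE 0.13, edgeR adjusted p = 0.00222), with a difference of 0.67, SE 0.16, edgeR adjusted p = 0.0312 for Sham-HF minus Sham-LVH, the only such call among the 72 lower genes; it overlaps Gm15609 on the other strand. Card10, a scaffold of NF-kappaB signalling, fell further. Card10 stood at 8.24, 7.73, 7.45 and 8.34 CPM in Sedentary 1 to 4, at 3.95, 2.47, 1.81 and 3.52 CPM in Sham-LVH 1 to 4 and at 5.85, 3.21, 4.26 and 4.33 CPM in Sham-HF 1 to 4. The lowest value was that of Sham-LVH 3. Card10 fell 2.22-fold (log2 fold change -1.15, SE 0.17, edgeR adjusted p = 0.00247). The netrin relative Ntng2 (log2 -1.05, edgeR adjusted p = 0.00247), the neuroligin Nlgn2 (log2 -0.98, edgeR adjusted p = 0.00247), the cadherin Celsr3 (log2 -1.07, edgeR adjusted p = 0.00997), the netrin receptor Unc5a (log2 -1.09, edgeR adjusted p = 0.00905), the plexin Plxna3 (log2 -0.90, edgeR adjusted p = 0.00859) and the proteoglycan Agrn (log2 -0.52, edgeR adjusted p = 0.00797) met the rule too. Ntng2, Celsr3, Unc5a and Plxna3 were low throughout, at most 3.7 CPM in any of the 12 libraries.

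A gene with no symbol in the annotation, ENSMUSG00000045999, fell most among those above 2 CPM. ENSMUSG00000045999 stood at 39.6, 19.5, 36.9 and 29.7 CPM in Sedentary 1 to 4, at 11.4, 7.24, 5.05 and 4.88 CPM in Sham-LVH 1 to 4 and at 10.6, 7.33, 11.6 and 11.2 CPM in Sham-HF 1 to 4. The highest sham was below the lowest sedentary heart. The fall was 3.73-fold (log2 fold change -1.90, SE 0.25, edgeR adjusted p = 0.00287). The provisional genes Gm37736 (log2 -1.47, edgeR adjusted p = 0.00384) and Gm26821 fell at very low levels. Gm26821 held 0 counts in 6 of the 8 shams and 0.677 to 1.66 CPM in the sedentary hearts, so that its fitted fold change is not interpretable.

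Of the genes of the fetal programme that returns under load, none was called higher in the pooled comparison. Of 16 tested, 1, Myh7, was lower (6.25%). Of all genes 8.96% were higher and 7.88% lower in that comparison, so that nothing about the list is read from these counts. Myh7 encodes the slow myosin heavy chain. Myh7 stood at 70.2, 109.5, 83.4 and 63.2 CPM in Sedentary 1 to 4, at 49.96, 20.9, 24.4 and 25.9 CPM in Sham-LVH 1 to 4 and at 45.3, 72.2, 67 and 81.6 CPM in Sham-HF 1 to 4. Sham-LVH lay below the sedentary hearts, while Sham-HF overlapped them. Myh7 fell 1.83-fold in the pooled comparison (log2 fold change -0.87, SE 0.25, edgeR adjusted p = 0.0394), by log2 -1.45 in Sham-LVH (adjusted p = 0.00827) and -0.30 in Sham-HF (adjusted p = 0.611), and the pooled call was lost without Sedentary 2 (adjusted p = 0.107) and after the GC correction (adjusted p = 0.0726); antisense Mhrt overlaps it. Acta1, the skeletal actin gene, varied most. Acta1 stood at 44, 284, 96.1 and 129 CPM in Sedentary 1 to 4, at 61.2, 76.6, 91.6 and 50.9 CPM in Sham-LVH 1 to 4 and at 66.6, 39.1, 42.3 and 33.4 CPM in Sham-HF 1 to 4. Sedentary 2 stood far above the rest, and the difference missed the threshold (log2 fold change -1.31, SE 0.42, edgeR adjusted p = 0.0605). The natriuretic peptide genes Nppa (log2 -0.52, edgeR adjusted p = 0.123) and Nppb (log2 0.19, edgeR adjusted p = 0.837) and the adult myosin gene Myh6 (log2 -0.03, edgeR adjusted p = 0.808) were not called. Dchs1, an atypical cadherin, was lower in the pooled comparison (log2 -0.48, edgeR adjusted p = 0.0128) but not in Sham-HF alone (adjusted p = 0.075), and its relative Dchs2 was not called (log2 -0.22, edgeR adjusted p = 0.63).

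No gene on the matrix list or on the activated fibroblast list met the rule. In the pooled comparison 8.96% of all genes tested were higher and 7.88% lower. Of 37 matrix genes 2 were higher and 8 lower (median -0.19), with 1 lower in Sham-HF, and after the GC correction 2 were lower. The count lower was 4 without Sedentary 1, 5 without Sedentary 4 and 14 without Sham-LVH 4. Of 18 activated fibroblast genes 2 were lower (11.1%, near the share of all genes), and 1 after the GC correction. Of 13 macrophage markers tested 1 (Cx3cr1) was lower in the pooled comparison, while 4 were higher in Sham-LVH, where 12.2% of all genes were. Their summed level was 132.1 to 163.6 CPM in sedentary, 162.2 to 237.6 in Sham-LVH and 116.8 to 174 in Sham-HF hearts. Of 7 red cell genes 3 were higher (0 without Sedentary 1, 1 without Sedentary 4 and 5 without Sham-LVH 1), with sums of 257 to 381.1, 403.3 to 696 and 349.5 to 450.8 CPM. Blood left in the hearts was not measured otherwise. The lung surfactant genes Sftpa1, Sftpb, Sftpc and Sftpd were at 0 in all 3 groups.

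The sham groups differed from each other in 381 higher and 268 lower genes (Sham-HF against Sham-LVH, edgeR adjusted p under 0.05; 4.68% of the genes tested, 2.75% higher and 1.93% lower), and genes of the circadian clock were among them. Arntl encodes BMAL1, the activator of the clock. Arntl stood at 4, 8.34, 10.7 and 4.56 CPM in Sedentary 1 to 4, at 0.641, 0.786, 0.221 and 1.49 CPM in Sham-LVH 1 to 4 and at 11.7, 7.37, 12.2 and 4.15 CPM in Sham-HF 1 to 4. Sham-LVH lay below all other values, and Sham-HF covered about the same range as the sedentary hearts. The difference between Sham-HF and Sham-LVH was log2 3.50, SE 0.56, edgeR adjusted p = 0.011. Hlf, a transcription factor driven by the clock, was the reverse. Hlf stood at 9.99, 4.92, 5.19 and 8.28 CPM in Sedentary 1 to 4, at 18.4, 16.8, 18.9 and 15.8 CPM in Sham-LVH 1 to 4 and at 3.87, 6.16, 6.06 and 8.3 CPM in Sham-HF 1 to 4. Each Sham-LVH heart was above each heart of the other 2 groups, with a difference of -1.51, SE 0.23, edgeR adjusted p = 0.00615. The running hearts resembled Sham-LVH in Arntl, at 0.879, 0.828, 0.359 and 2.76 CPM.

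Of 7 genes on the list of the activating arm, Sham-LVH had 4 lower (Arntl, Clock, Npas2 and the repressor gene Nfil3) and 1 higher (Rora) than sedentary hearts, and Sham-HF 0. Of 12 output genes, 4 were higher in Sham-LVH (Ciart, Hlf, Nr1d2 and Tef) and 0 in Sham-HF. Of all genes tested 12.2% were higher and 11.3% lower in Sham-LVH, and 0.987% and 0.879% in Sham-HF. The sedentary hearts also differed among themselves. Per2, a repressor of the clock, stood at 17, 1.55, 2.31 and 10.4 CPM in Sedentary 1 to 4, so that Sedentary 1 and 4 were high and Sedentary 2 and 3 low. The labels give no hour of collection, and its part in these differences was not tested.

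Pdk4, the kinase that turns the heart away from glucose, separated the sham groups in opposite directions from the sedentary hearts. Pdk4 stood at 150.5, 148, 94.6 and 86.8 CPM in Sedentary 1 to 4, at 35.6, 85.6, 43.2 and 82.3 CPM in Sham-LVH 1 to 4 and at 263, 289, 217 and 198 CPM in Sham-HF 1 to 4. Sham-LVH was below and Sham-HF above each sedentary heart. The log2 fold changes were -0.99 in Sham-LVH (adjusted p = 0.0415) and 1.01 in Sham-HF (adjusted p = 0.111), and the difference was 1.99, SE 0.31, edgeR adjusted p = 0.01. In the pooled comparison they cancel (log2 0.0092, edgeR adjusted p = 0.986).

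**Figure D5:**
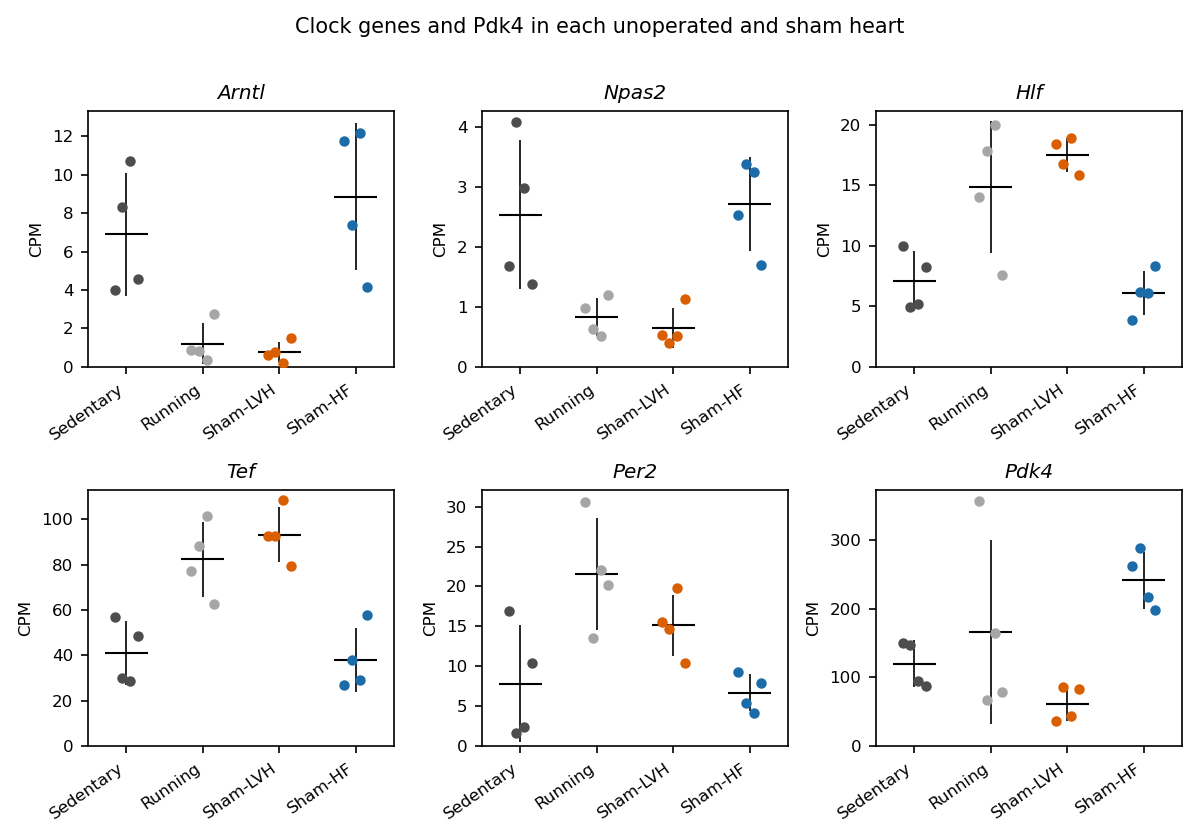
CPM of Arntl, Npas2, Hlf, Tef, Per2 and Pdk4 in each library of the sedentary, running, Sham-LVH and Sham-HF groups (points), with the mean of 4 libraries (line) and the SD (bar). Sham-LVH lies lowest for Arntl and Npas2 beside the running hearts, and Sham-HF lies near the sedentary hearts except for Pdk4, where it is above them.

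The 172 genes were also read in libraries the rule did not use: 8 TAC hearts against 4 running hearts, which differ in operation and cohort as the shams and sedentary hearts do, and in the constriction and the exercise besides. In that comparison 3094 of 14438 genes were higher and 3326 lower (44.5% called, 21.4% higher and 23% lower). Of the 72 genes lower in both sham groups 71 were tested; 41 were lower (57.7%) and 4 higher (5.63%), with a median log2 fold change of -0.40. Of the 100 higher genes, 27 were higher and 17 lower, with a median of -0.041. Base composition moved in this comparison too. The level of GC-rich minus GC-poor genes was -0.228 to -0.14 in TAC-LVH, -0.0549 to -0.0176 in TAC-HF and 0.0236 to 0.0983 in the running hearts. Across 13679 genes the Spearman correlation of the log2 fold change with GC content was -0.137. No GC correction was made here, and the part of composition in these counts was not tested. Uqcrq fell by 2.09 on the log2 scale (edgeR adjusted p = 3.87e-08), mt-Rnr1 by 1.57 (adjusted p = 9.01e-07) and H2-Q7 by 1.03 (adjusted p = 0.0113). Among the higher genes Rnf13 rose (0.64, adjusted p = 5e-05) as did Glrx3 (0.56, adjusted p = 0.002), while Hadha fell (-0.47, adjusted p = 0.00479). Of the fatty acid list 0 were higher and 19 lower in TAC hearts. The lists of H2-Q7 and Stat2 did not fall as a whole there. Of the interferon response list 11 were higher and 3 lower (median log2 fold change 0.23). Of the class I presentation list 6 were higher and 6 lower (median 0.020), beside 21.4% and 23% of all genes. Running against sedentary hearts, both without an operation, gave 0 called genes of 13824 by edgeR, with 665 at an unadjusted p under 0.05 and a smallest adjusted p of 0.126.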

How the data were processed

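Total RNA of 24 mouse hearts was extracted with Trizol, depleted of ribosomal RNA with RiboZero and built into libraries with an NEB kit, per the labels' protocols. The deposited values are estimated counts of each gene in whole numbers, not normalized; the authors ran FastQC and Salmon with build mm9, per the submitters' processing notes. Not given in the sources used here: versions, annotation and strand setting. Of 43432 identifiers 42548 took a symbol from GENCODE M21 (build GRCm38); 1 row names no gene and holds 0 counts.

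Counts of the 12 libraries were fitted in 1 model of 3 groups with edgeR 4.0.16 in R 4.3.3 (filterByExpr, TMM, robust quasi-likelihood F test, two-sided, Benjamini-Hochberg over all genes tested). TAC against running was fitted on its 12 libraries. Shares of counts were compared by exact permutation (smallest p 0.00202 for 8 against 4 libraries, 0.0286 for 4 against 4). The analysis was tested on simulated data. Alternatives were DESeq2 1.42.0, other scalings, filters and library sets, each library left out and a replicate block. GC content is that of a gene's longest GENCODE transcript, and its correction, by a loess curve per library passed to edgeR as offsets, was chosen after seeing the data.

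Genes named are the 12 largest changes in each direction among genes meeting the rule without overlap and with a mean CPM of at least 2, up to 3 more with provisional symbols, the 8 with the smallest p per direction, up to 5 members per list, the fetal, clock and cadherin genes, Pdk4, and 5 per direction between sham groups; not every one is described, and others of the rule were named after their values were seen. The members, lists and tests were chosen with earlier results of these data known. The lists of class I presentation, branched-chain amino acid breakdown and Notch signalling and the promoter motifs were added after seeing the data.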

Additional observations from a re-analysis of the deposited data

Results flagged for a closer look

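A single library lay far from the other 3 of its group in 6 of 147 sets of 4 values checked; chance alone gives about 1 in 20. Nampt was at 90.8 CPM in Sham-LVH 1, below the other Sham-LVH hearts, and Myh7 at 49.96 CPM in the same library, above them. Cox7b was at 128.0 CPM in Sham-HF 4, Ppm1k at 56.4 CPM in Sham-HF 1 and Vwa3a at 3.73 CPM in Sham-HF 2, each below the rest of its group. The difference between GC-rich and GC-poor genes was 0.0351 in Sedentary 1, below the other sedentary hearts and nearest to the shams.

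Of the 133 genes named with values, 23 differed between the sham groups (log2 difference of Sham-HF minus Sham-LVH, edgeR adjusted p), beside 4.68% of all genes tested. The first 5 in each direction by p were named because of this same contrast, so that nothing is read from the count. Of the genes meeting the rule these were Nampt (-0.41, adjusted p = 0.0257), Chrm2 (-0.50, adjusted p = 0.017) and Shank3 (0.67, adjusted p = 0.0312). Among other members of the lists, Sham-HF was higher in Bckdha (0.34, adjusted p = 0.0253) and Notch1 (0.52, adjusted p = 0.023). The clock genes were Arntl (3.50, adjusted p = 0.011), Npas2 (2.05, adjusted p = 0.0106), Clock (0.67, adjusted p = 0.00311), Nfil3 (1.43, adjusted p = 0.0188), Hlf (-1.51, adjusted p = 0.00615), Tef (-1.29, adjusted p = 0.032) and Ciart (-1.76, adjusted p = 0.0311), and the kinase gene was Pdk4 (1.99, adjusted p = 0.01). By p, the first 5 in each direction were, with Sham-HF higher, Slc38a3 (0.75, adjusted p = 0.000898), a glutamine transporter gene, Vwa3a (1.157, adjusted p = 0.00101), Mypn (0.72, adjusted p = 0.00174), a sarcomere gene, Cep85 (0.72, adjusted p = 0.00238) and Miga2 (0.75, adjusted p = 0.00238), which acts in mitochondrial fusion. With Sham-HF lower they were Ephx1 (-0.89, adjusted p = 0.000898), an epoxide hydrolase gene, Abca8a (-0.75, adjusted p = 0.0022), Angptl2 (-0.75, adjusted p = 0.00174), Col8a1 (-0.76, adjusted p = 0.00155), a collagen gene, and Scd2 (-0.76, adjusted p = 0.00238), a fatty acid desaturase gene.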

How the results depend on the processing

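With 1 library left out, the pooled sham comparison gave 1357 to 3089 genes, Sham-LVH 2017 to 3906, Sham-HF 0 to 482, Sham-HF against Sham-LVH 227 to 1283, the rule 0 to 371 and TAC against running 5410 to 6488. The same fits moved the share of counts (shams minus sedentary, percentage points) of 7SL RNA over 0.051 to 0.496, of unspliced regions of class TEC over -0.0123 to -0.0104, of haemoglobin genes over 0.0116 to 0.0173, of mitochondrial genes over -3.51 to -1.0, of mitochondrial ribosomal RNA over -5.34 to -2.47 and of the 10 most abundant genes over -3.05 to -0.993, and the difference in total counts over -1838000 to 5732000.

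Other settings moved the counts as follows, and the cause was not tested. Sham-HF against sedentary had 259 genes; it had 598 with DESeq2, 63 with library totals, 426 without the low-count filter, 575 on its own libraries, 41 after the GC correction, and 0 with either pair of sedentary libraries left out. The rule, met by 172 genes, was met by 395 with DESeq2, 40 with library totals, 262 without the filter, 395 with each comparison on its own libraries, 28 after the GC correction, and 0 without either pair, where only 2 sedentary libraries remained. The pooled comparison had 1141 genes with library totals, 1326 on its own libraries, 1281 after the GC correction, and 7 and 2 without the pairs. Sham-LVH had 1359 and 1199 genes without the pairs. Sham-HF against Sham-LVH had 396 genes with library totals. With DESeq2's size factors in edgeR the rule was met by 173.

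Replicate numbers did not pair the libraries: deviations of libraries with the same number correlated at -0.0842 to 0.15. With the replicate block, Sham-HF against sedentary had 391 genes and the rule 275. Of 133 named genes, 127 kept their call with DESeq2, 123 with library totals, 115 of 132 after the GC correction and 131 with the replicate block. With 1 library left out 122 to 133 did, and with a pair of sedentary libraries left out 27 or 28. The call counted here is not that of the rule, which was far less stable. Without Sedentary 3, 128 of the 133 kept their call while 0 genes met the rule. Depth limits genes under about 2 CPM, and 4 sedentary libraries limit every comparison.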

Other observations

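Complement genes were called in Sham-LVH. Of 14 complement genes tested, 6 were higher in Sham-LVH than in sedentary hearts (among them C1qa, C1qb and C1qc) and 0 in Sham-HF, where 12.2% and 0.987% of all genes tested were called higher, with medians of 0.19 and -0.062. These 3 encode the recognition subunits of the classical pathway and are made by macrophages. The macrophage markers Csf1r, F13a1, Lyz2 and Mrc1 were higher in Sham-LVH. In Sham-HF against Sham-LVH 4 of 13 macrophage markers were lower, beside 1.93% of all genes tested. Within 12 nuclear long noncoding RNA genes 3 were lower in the pooled comparison, 6 in Sham-LVH and 0 in Sham-HF. Of all genes tested 7.88%, 11.3% and 0.879% were lower in these comparisons, so that nothing is read from the 0 in Sham-HF. Of 23 potassium and sodium channel genes 3 were higher and 0 lower, and of 22 heat shock and chaperone genes 4 were higher and 1 lower, beside 8.96% and 7.88% of all genes tested.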
